A study of Mus musculus with 8 samples.

Results

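A set of 10 genes of calcium-binding proteins was followed in supporting cells of the neonatal mouse cochlea. They comprise 7 S100 genes (S100a1, S100a4, S100a6, S100a10, S100a11, S100a13 and S100b) and 3 genes of EF-hand calcium buffers, Calb1 for calbindin, Calb2 for calretinin and Pvalb for parvalbumin. They were taken by symbol from the mm9 (NCBIM37) gene annotation, by a rule that uses no measured value, and make up 10 of the 36536 genes with a count. The set itself was chosen with earlier results of these data known. All 10 passed the filter on low counts in each comparison. The cells came from Lfng-GFP BAC transgenic mice (strain B6;FVB-Tg(Lfng-EGFP)HM340Gsat/Mmucd), in which a Lunatic fringe transgene drives GFP. Cochleas taken at postnatal day 1 (P1) or day 6 (P6) were dissociated without culture or treatment and sorted into GFP+ and GFP- cells, with 2 RNA-seq libraries in each of the 4 groups. GFP+ here means the strongest fluorescence in the sort. In these mice that is the signal of most supporting cell types around the hair cells, from border to Deiters' cells, the inner pillar cells being the exception. Cells with a weak GFP signal were left out of the study's collection. All 4 groups carry the transgene, and each library pools cells of many animals, so p-values measure the spread between pools. The comparisons ask which of these genes distinguish GFP+ supporting cells from GFP- cells at each age, and which differed between the ages. The dissection differed too, by the study's methods. At P1 the lateral wall, Reissner's membrane and stria vascularis were taken off, and at P6 they were removed in part. Age and dissection thus cannot be told apart in comparisons between the ages.

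S100 proteins are small dimers that sense calcium: on binding it they expose a surface that grips a target protein such as an annexin, a myosin or a calcium channel. Calbindin, calretinin and parvalbumin act mostly as buffers that soak up calcium entering a cell. In the inner ear the buffers are best known from hair cells and spiral ganglion neurons, and S100 proteins from supporting cells and Schwann cells.

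The EF-hand loop is the stretch of 12 residues that holds the calcium ion, and it is shown here because it is the feature the 10 genes share and because a pair of them lacks its usual form. The standard EF-hand loop pattern was searched in the translated coding sequences of the GENCODE vM1 transcripts (NCBIM37). S100a1, S100a4, S100a6, S100a11 and S100b held 1 match each, Calb1 held 4, Calb2 held 5 and Pvalb held 2. S100a10 and S100a13 held 0, and for them the stretch aligned with the S100a1 loop is printed. The absence of a match says only that the pattern was not found in these codons. The lines give 36 coding bases for 9 of the genes, 5′ to 3′, with capitals for the codons of loop positions 1, 3, 5, 9 and 12, whose residues lie around the ion.
S100a1: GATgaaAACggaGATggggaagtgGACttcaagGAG
S100a6: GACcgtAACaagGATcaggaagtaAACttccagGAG
S100a4: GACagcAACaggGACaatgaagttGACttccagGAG
S100a11: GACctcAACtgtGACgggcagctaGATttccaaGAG
S100a13 (aligned): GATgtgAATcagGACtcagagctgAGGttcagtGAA
S100a10 (aligned): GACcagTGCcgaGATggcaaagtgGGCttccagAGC
Pvalb, first loop: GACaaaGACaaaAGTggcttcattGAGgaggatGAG
Calb1, first loop: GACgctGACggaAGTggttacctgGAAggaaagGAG
Calb2, first loop: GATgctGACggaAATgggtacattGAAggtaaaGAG
The S100 proteins were short, from 89 residues (S100a6) to 101 (S100a4), against 110 for Pvalb, 261 for Calb1 and 271 for Calb2. Among the S100 proteins S100a1 and S100b were the closest pair, with 57.4% of aligned residues identical, and S100a6 and S100a10 were the most distant, with 23%. Calb1 and Calb2 shared 58.1%.

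The S100 genes other than S100b lie on chromosome 3. S100a1 (ENSMUSG00000044080, 90314956 to 90318314, minus strand) and S100a13 (ENSMUSG00000042312, 90318357 to 90328503, plus strand) stand head to head, followed by S100a4 (ENSMUSG00000001020, from 90407692) and S100a6 (ENSMUSG00000001025, from 90416816). S100a11 (ENSMUSG00000027907, from 93324410) and S100a10 (ENSMUSG00000041959, from 93359002) form a second cluster. The others are alone: S100b on chromosome 10 (ENSMUSG00000033208, from 75716598), Calb1 on chromosome 4 (ENSMUSG00000028222, from 15808411), Calb2 on chromosome 8 (ENSMUSG00000003657, from 112661402) and Pvalb on chromosome 15 (ENSMUSG00000005716, from 78021544). No other annotated exon overlaps their exons. The annotated starts of S100a1 and S100a13 are separated by 42 bases of intergenic sequence, which is printed because both genes were much higher in GFP+ cells. Its single CG is in capitals.
chr3:90318315-90318356 (NCBIM37, plus strand): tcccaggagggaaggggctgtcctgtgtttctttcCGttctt
A plus-strand start as near or nearer was annotated for 88 of 11204 minus-strand protein-coding genes, or 0.785%.

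The libraries held 17769024 to 67695039 reads counted on genes, and 21227 to 24199 genes were detected in each. Levels are given as CPM, the reads of a gene per 1000000 reads counted on genes in its library. The 11 supporting cell markers summed to 6559 to 9200 CPM in the 4 GFP+ libraries and to 934 to 1056 CPM in the 4 GFP- libraries. Lfng itself lay between 2365 and 3755 CPM in GFP+ cells and between 17.2 and 45.8 CPM in GFP- cells. Transcripts of markers of other cells were also found in the GFP+ libraries, and whether such cells were sorted with them was not tested. The 10 hair cell markers summed to 470 to 907 CPM in GFP+ libraries and 354 to 477 CPM in GFP- libraries, and 7 of the 10 passed as higher in the GFP+ fraction at each age. Pou4f3, a hair cell transcription factor, was at 9.01 to 15.9 CPM in the GFP+ and 0.470 to 1.46 CPM in the GFP- libraries. Among the GFP- libraries, P1 replicate 2 stood apart from replicate 1: the 9 neuron markers summed to 715 CPM against 217 CPM. Among the GFP+ libraries, P6 replicate 2 was above replicate 1 in markers of other cells. These stood at 3576 against 1780 CPM for the 8 mesenchyme markers and 2572 against 1284 CPM for the 8 Schwann cell and glia markers.

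**Figure D1:**
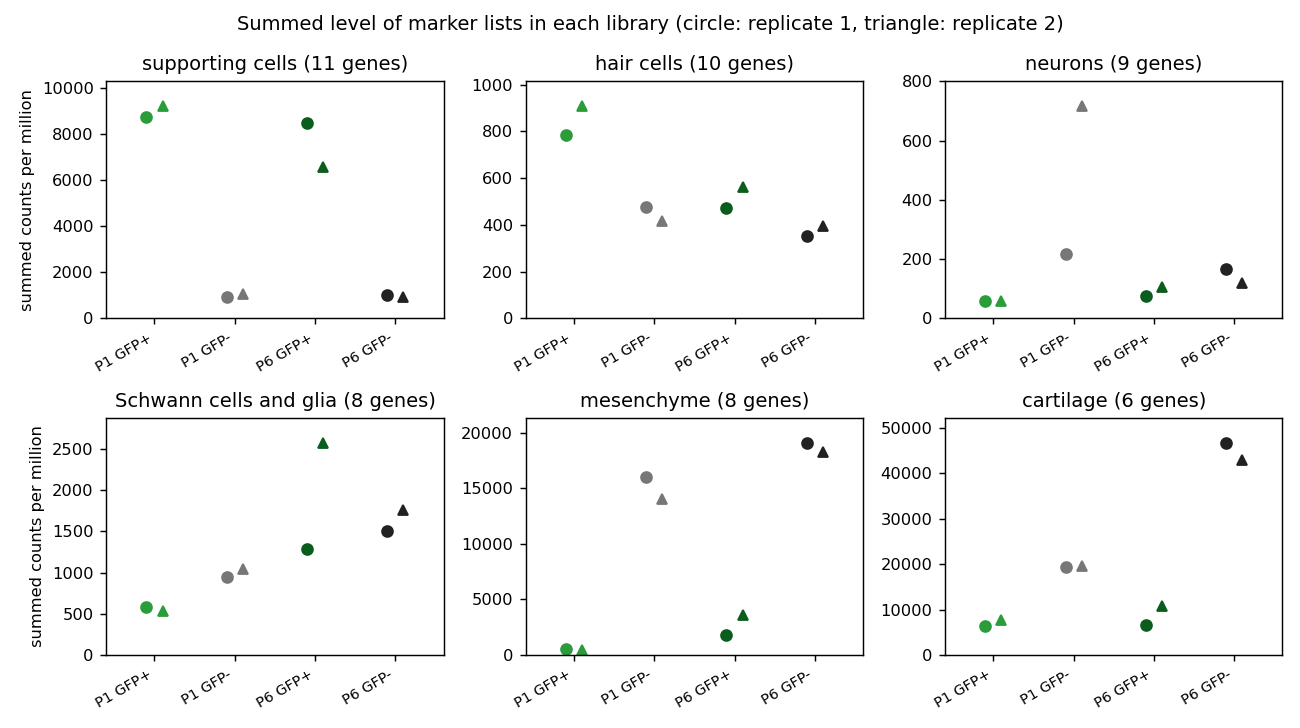
Summed level, in CPM, of 6 lists of cell type markers in each of the 8 libraries (circles replicate 1, triangles replicate 2). Supporting cell markers stand at 6559 CPM or more in GFP+ cells and at 1056 CPM or less in GFP- cells, and neuron markers reach 715 CPM in P1 GFP- replicate 2 alone.

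S100a1 was by far the most abundant of the 10 transcripts in supporting cells. S100a1 is known from heart muscle, where it binds the ryanodine receptor and the calcium pump of the store. Its level at P1 was 766 and 697 CPM in GFP+ cells against 13.3 and 21.4 CPM in GFP- cells. At P6 it was 1798 and 1034 CPM in GFP+ cells and 42.6 and 35.6 CPM in GFP- cells. Every GFP+ library was thus far above every GFP- library at both ages. S100a1 was 45.1-fold higher in GFP+ than GFP- cells at P1 (log2 fold change 5.50 ± 0.26 SE, p-adj 3.03e-05) and 36.2-fold higher at P6 (5.18 ± 0.39, p-adj 0.00116). The difference between the ages in that ratio did not pass the test (0.33 on the log2 scale, p-adj 0.728).

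Set against the other members per kilobase of exon (RPKM), S100a1 led in both GFP+ groups, with means of 1054 ± 69.6 RPKM (SD, n = 2) at P1 and 2041 ± 778 RPKM at P6. It made up 78.0% and 76.8% of the summed RPKM of the 10 genes in GFP+ cells at P1, and 79.4% and 74.1% at P6. In GFP- cells its share was 7.17% and 8.57% at P1 and 14.9% and 13.9% at P6. The next genes in GFP+ cells were S100b, S100a13 and S100a11 at both ages. At P1 these had means of 80.9, 64.0 and 54.9 RPKM, and the S100a13 and S100a11 replicates overlapped. At P6 their means were 150.2, 141 and 113 RPKM, and neither S100b and S100a13 nor S100a13 and S100a11 were separated by their replicates. The buffers stood near the foot of the GFP+ order, with Calb1, Pvalb and Calb2 between 13.9 and 17.5 RPKM at P1 and between 16.8 and 17.9 RPKM at P6. Within these 3 each neighbour overlapped the next, and S100a4 was the lowest member in GFP+ cells (0.978 and 2.39 RPKM at P1 and P6).

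In GFP- cells the order was another. At P1 S100a11 led with 117 ± 2.39 RPKM (SD, n = 2), followed by S100a10 with 44.0 RPKM, and the replicates of S100a10, Calb2, Pvalb, S100b and S100a1 overlapped from each gene to the next. At P6 S100b led with 164 ± 18.6 RPKM, above S100a11 with 91.3 RPKM and S100a1 with 56.3 RPKM, 3 levels that did not overlap. Calb1 was last, with 2.13 RPKM.

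**Figure D2:**
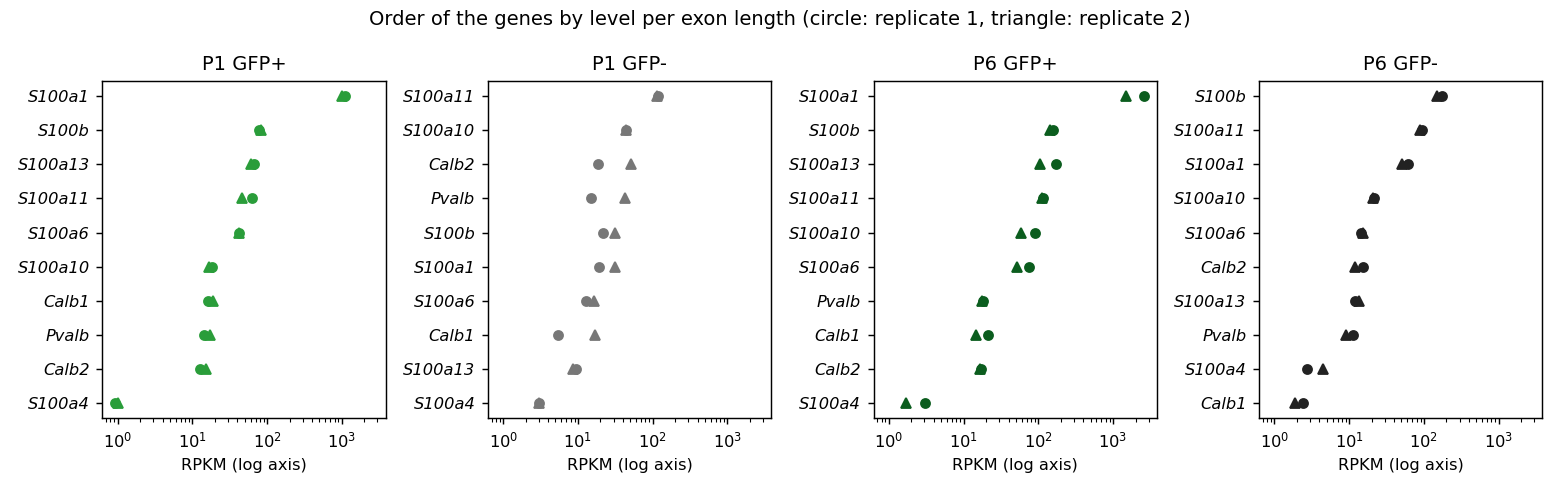
RPKM of the 10 genes on a log axis in the 4 groups, each panel ordered by the group mean (circles replicate 1, triangles replicate 2). S100a1 stands above all others in both GFP+ groups (means 1054 and 2041 RPKM), S100a11 leads in P1 GFP- cells and S100b in P6 GFP- cells.

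At P1 7 of the 10 genes passed the threshold between GFP+ and GFP- cells (p-adj below 0.01), 4 higher and 3 lower in GFP+ cells. Of all genes tested, 37.3% passed, 16.6% higher and 20.7% lower. The median log2 fold change of the 10 was −0.01, against 0.01 over all genes. At P6 5 of the 10 passed, all 5 higher in GFP+ cells, where 12.9% of all genes passed, 7.72% higher and 5.19% lower. When libraries were scaled by their totals alone, 71.4% rather than 59.8% of the P6 calls over all genes were higher. The median of the 10 at P6 was 1.32 against −0.02 over all genes. With the added demand for a more than 4-fold change, 2 members remained at P1 (S100a1 and S100a13), where 17.8% of all genes met both demands, and 4 at P6, where 7.98% did. Under the same demand 1 member remained in each comparison between the ages, S100a10 in GFP+ cells (2.56% of all genes) and S100b in GFP- cells (1.85%), and S100a10 in the test of the difference between the contrasts (1.26%). Leaving out either P6 GFP- library cost calls at P6, among the members and over all genes. Without P6 GFP- replicate 2 edgeR called no gene at all, member or other. In bulk libraries, fewer cells of a type and less RNA per cell cannot be told apart.

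**Figure D3:**
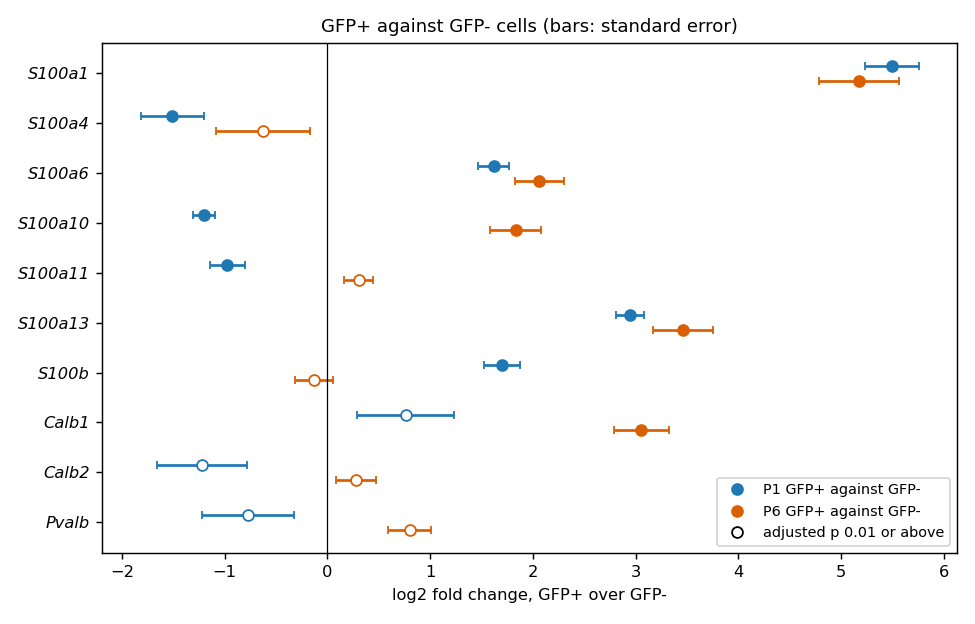
Log2 fold change of GFP+ over GFP- cells at P1 (blue) and P6 (orange) for the 10 genes, with standard errors from edgeR. Filled points passed p-adj below 0.01, 7 at P1 and 5 at P6, and S100a10 lies below 0 at P1 (−1.21) and above 0 at P6 (1.83).

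S100a13 and S100a6 followed S100a1. S100a13 takes part in the release of the growth factor FGF1, and S100a6, or calcyclin, binds the protein Cacybp. S100a13 was at 47.6 and 43.9 CPM in P1 GFP+ cells, 6.76 and 6.05 CPM in P1 GFP- cells, 125 and 76.1 CPM in P6 GFP+ cells and 8.63 and 9.57 CPM in P6 GFP- cells. S100a6 was at 29.9 and 30.7, 9.26 and 11.9, 53.3 and 36.9, and 10.4 and 11.1 CPM in the same order of groups. For both genes the GFP+ and GFP- libraries were separated at each age. S100a13 was 7.70-fold higher in GFP+ cells at P1 (log2 2.95 ± 0.13, p-adj 2.75e-05) and 3.46 ± 0.29 higher on the log2 scale at P6 (p-adj 0.00152). S100a6 was higher by 1.62 ± 0.15 at P1 (p-adj 0.000362) and by 2.06 ± 0.24 at P6 (p-adj 0.00355). Without P6 GFP- replicate 1 the P6 difference of S100a6 was 2.08 with p-adj 0.0240.

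S100a1, S100a13 and S100a6 also had like profiles over the 4 groups. Over the 8 libraries, log2(CPM + 1) of S100a1 had a Pearson r of 0.985 with S100a13 and 0.981 with S100a6, and that of S100a6 and S100a13 was 0.988. The libraries fall into 4 groups that differ in these genes, so the points are not independent. In P6 GFP+ cells replicate 1 was above replicate 2 by 1.74-fold for S100a1, 1.64-fold for S100a13 and 1.45-fold for S100a6, where the summed supporting cell markers were 1.29-fold apart in the same direction. The part of these marker levels in the spread of the members was not tested.

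S100a10 took opposite sides at the 2 ages. S100a10, also called p11, does not need calcium to bind its partner annexin A2, which it helps bring to the plasma membrane. It was at 22.5 and 20.4 CPM in P1 GFP+ cells against 52.9 and 53.6 CPM in P1 GFP- cells. At P6 it was at 110 and 71.8 CPM in GFP+ cells against 25.7 and 25.2 CPM in GFP- cells. The GFP- libraries were thus the higher at P1 and the GFP+ libraries the higher at P6, with no overlap at either age. The log2 fold change of GFP+ over GFP- cells was −1.21 ± 0.11 at P1 (p-adj 0.000284) and 1.83 ± 0.25 at P6 (p-adj 0.00541). The P6 value was 1.91 without P6 GFP- replicate 1 and 1.80 without P6 GFP- replicate 2, and missed the threshold in both fits. The P1 ratio minus the P6 ratio was −3.03 ± 0.30 on the log2 scale (edgeR interaction over the 8 libraries, p-adj 0.00187). It lay between −3.32 and −2.65 when each library was left out in turn. It missed the threshold without either P1 GFP+ library or either P6 GFP- library (highest p-adj 0.0243). Anxa2, the gene of annexin A2, was at 122 and 124 CPM and at 158 and 197 CPM in P1 GFP+ and GFP- cells, and at 188 and 181 CPM and at 106 and 98.4 CPM in P6 GFP+ and GFP- cells. Its own interaction was −1.26 (p-adj 0.0121), which did not pass.

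S100b, the S100 protein most used as a marker of astrocytes and Schwann cells, was higher in GFP+ cells at P1 and did not pass at P6. Its levels were 116 and 124 CPM in P1 GFP+ cells and 32.5 and 46.8 CPM in P1 GFP- cells. At P6 they were 233 and 213 CPM in GFP+ cells and 262 and 223 CPM in GFP- cells. The P1 fractions were separated and the P6 fractions overlapped. The log2 fold change was 1.70 ± 0.17 at P1 (p-adj 0.000492) and −0.13 ± 0.19 at P6 (p-adj 0.629), and the P6 value was 0.051 without P6 GFP- replicate 1. The difference between the ages was 1.84 ± 0.28 (p-adj 0.00867, and 0.0244 with the replicate number in the fit). It lost its call with libraries scaled by totals alone (p-adj 0.0115) and without any 1 of 6 libraries, namely both P1 GFP+, both P1 GFP- and both P6 GFP- libraries, with a highest p-adj of 0.0562 and a value of 1.57 to 2.04 throughout.

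S100a11 and S100a4 were lower in GFP+ cells at P1 and did not pass at P6. S100a11 is a partner of annexin A1, and S100a4 binds non-muscle myosin II and is known from motile mesenchymal cells. S100a11 was at 32.4 and 23.7 CPM in P1 GFP+ cells, 60.6 and 58.8 CPM in P1 GFP- cells, 58.6 and 56.9 CPM in P6 GFP+ cells and 47.7 and 45.5 CPM in P6 GFP- cells. Its fractions were separated at both ages, GFP- the higher at P1 and GFP+ at P6. The log2 fold change was −0.98 ± 0.17 at P1 (p-adj 0.00434, and 0.0148 without P1 GFP+ replicate 2) and 0.30 at P6 (p-adj 0.163). The difference between the ages was −1.27 with p-adj 0.0200, above the threshold. The S100a11 transcript matched 2 other places in the genome over 98.2% of its length, at up to 98.6% identity. Reads that map to several places were not counted, so its level is uncertain.

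S100a4 was the rarest member, at 0.546 and 0.603 CPM in P1 GFP+ cells against 1.77 and 1.74 CPM in P1 GFP- cells. These levels rest on 25 and 15 reads in the GFP+ libraries and 67 and 110 reads in the GFP- libraries. At P6 it was at 1.80 and 1.00 CPM in GFP+ cells and 1.61 and 2.63 CPM in GFP- cells, where the fractions overlapped. The log2 fold change was −1.51 ± 0.30 at P1 (p-adj 0.00766, and 0.0172 with the replicate number in the fit) and −0.63 at P6 (p-adj 0.339). The P1 call was lost with DESeq2 (p-adj 0.0126), with all 8 libraries in the fit (p-adj 0.0160) and without either P1 GFP+ library (p-adj 0.0763 and 0.0573).

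**Figure D4:**
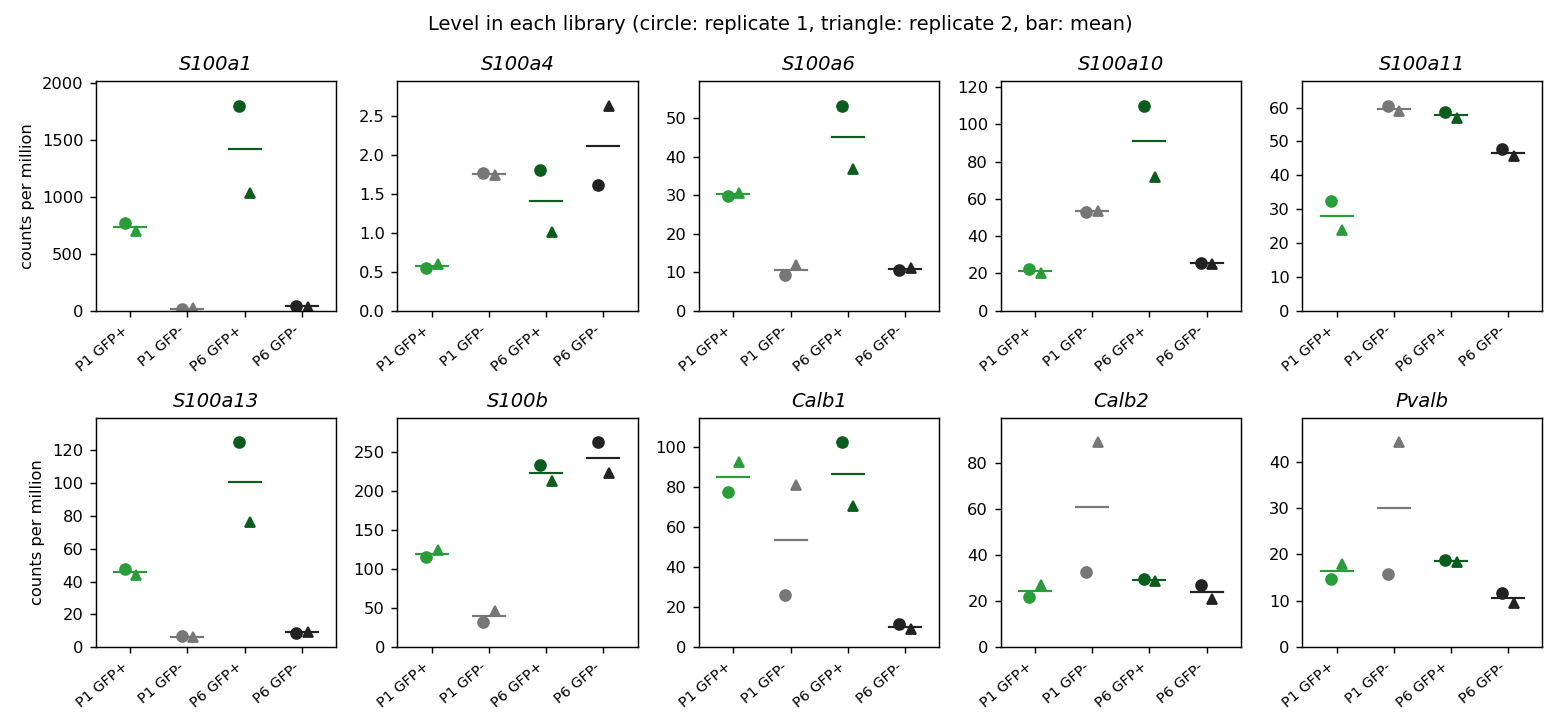
Level of each of the 10 genes, in CPM, in the 8 libraries (circles replicate 1, triangles replicate 2, bars the group means). The GFP+ libraries stand above the GFP- libraries at both ages for S100a1, S100a6 and S100a13, and the P1 GFP- replicates lie far apart for Calb1, Calb2 and Pvalb.

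Of the buffers, Calb1 was higher in GFP+ cells at P6. Calb1 was at 102 and 70.2 CPM in P6 GFP+ cells and at 11.5 and 9.14 CPM in P6 GFP- cells. At P1 it was at 77.5 and 92.1 CPM in GFP+ cells and at 26.1 and 81.1 CPM in GFP- cells. The P6 fractions did not overlap, and at P1 the higher GFP- library lay within the range of the GFP+ libraries. Calb1 was 8.32-fold higher in GFP+ cells at P6 (log2 3.06 ± 0.27, p-adj 0.00164). At P1 its log2 fold change was 0.76 (p-adj 0.222), and it was 1.79 without P1 GFP- replicate 2 and 0.14 without replicate 1. The difference between the ages was −2.28 (p-adj 0.0812), or −2.91 without P1 GFP- replicate 1 and −1.33 without replicate 2.

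Calb2 and Pvalb passed in neither fraction contrast. Calb2 was at 21.7 and 26.8 CPM in P1 GFP+ cells, 32.4 and 88.8 CPM in P1 GFP- cells, 29.5 and 28.8 CPM in P6 GFP+ cells and 27.0 and 20.8 CPM in P6 GFP- cells. Pvalb was at 14.8 and 18.0, 15.7 and 44.1, 18.8 and 18.4, and 11.8 and 9.44 CPM in the same order. In GFP+ cells both stayed within a narrow range over the ages, and P1 GFP- replicate 2 was the highest library for each. Calb2 gave log2 fold changes of −1.22 at P1 (p-adj 0.0580) and 0.28 at P6 (p-adj 0.318), and Pvalb gave −0.77 (p-adj 0.193) and 0.80 (p-adj 0.0341). Without P1 GFP- replicate 1 the P1 values were −1.80 for Calb2 and −1.36 for Pvalb, and without replicate 2 they were −0.33 and 0.14. At P6 Pvalb gave 0.82 without P6 GFP+ replicate 1 and 0.84 without replicate 2.

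The 3 buffers shared the split between the P1 GFP- libraries. Replicate 2 was above replicate 1 by 3.10-fold for Calb1, 2.74-fold for Calb2 and 2.81-fold for Pvalb, and the summed neuron markers were 3.30-fold higher in the same library. The S100 genes differed there by less: S100a1 was 1.61-fold and S100b 1.44-fold higher in replicate 2, and the summed hair cell markers were at 477 and 418 CPM in replicates 1 and 2. The part of the neuron markers in the levels of the buffers was not tested. Over the 8 libraries Calb2 and Pvalb had an r of 0.919, with that library the highest for both.

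Between P1 and P6 the GFP+ cells gave 1 call among the 10 genes, where 4.81% of all genes passed (2.86% higher and 1.95% lower). S100a10 rose 4.53-fold (log2 2.18 ± 0.25, p-adj 0.00749), and missed the threshold without P1 GFP+ replicate 2 (p-adj 0.0240). All 10 log2 fold changes were above 0, with a median of 1.02 against −0.00 over all genes. In the same libraries the median change was 2.40 for the mesenchyme, 2.54 for the endothelium, 2.43 for the macrophage, 3.47 for the melanocyte and 1.51 for the Schwann cell and glia markers. It was 0.32 for the cartilage, 0.23 for the neuron, −0.53 for the hair cell and −0.45 for the supporting cell markers. The part of these marker levels in the change of the members was not tested. The largest values after S100a10 were 1.36 for S100a4 (p-adj 0.0908), 1.23 for S100a13 (p-adj 0.0345) and 1.13 for S100a11 (p-adj 0.0197). S100b gave 0.99 (p-adj 0.0102), S100a1 gave 1.05 (p-adj 0.0699) and S100a6 gave 0.67 (p-adj 0.0887). Calb1, Calb2 and Pvalb gave 0.12, 0.36 and 0.28. With each library left out in turn, the value lay between 1.80 and 2.48 for S100a10 and between 0.56 and 1.42 for S100a1. For Calb1 it lay between −0.20 and 0.40.

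Between the ages, which also differ in dissection, 3 of the 10 genes passed in GFP- cells, against 7.38% of all genes (5.04% higher and 2.34% lower). With scaling by totals alone, 49.5% rather than 68.3% of those calls over all genes were higher. S100b rose 7.0-fold (log2 2.81 ± 0.20, p-adj 0.000501), and its call held without any 1 library. In the same libraries, 3 of the 8 Schwann cell and glia markers passed and rose, among them Pmp22 by 1.31 and Mbp by 1.10 on the log2 scale. The other 5 did not pass, among them Foxd3 at −0.72, Erbb3 at −0.60, Cdh19 at −0.27 and Sox10 at −0.22, and the median of the list was 0.04. The part of these markers in the rise of S100b was not tested. S100a1 rose by 1.36 ± 0.23 (p-adj 0.00940, and 0.0102 with the replicate number in the fit) and S100a10 fell by 0.87 ± 0.11 (p-adj 0.00318). Both of these lost their call without either P6 GFP- library, S100a1 with p-adj of 0.0696 and 0.0296 and S100a10 with 0.0287 and 0.0335. With all 8 libraries in the fit both lost it too (p-adj 0.0288 and 0.0340), and S100a1 lost it with scaling by totals alone (p-adj 0.0210). Calb1 had a log2 fold change of −2.18 (p-adj 0.0220), with −2.79 without P1 GFP- replicate 1 and −1.16 without replicate 2. Calb2 and Pvalb gave −1.15 (p-adj 0.101) and −1.30 (p-adj 0.0790). Their values were −1.71 and −1.87 without P1 GFP- replicate 1, and −0.26 and −0.39 without replicate 2. The remaining S100 genes did not pass, with 0.70 for S100a13 (p-adj 0.0424), 0.46 for S100a4, 0.22 for S100a6 and −0.16 for S100a11.

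**Figure D5:**
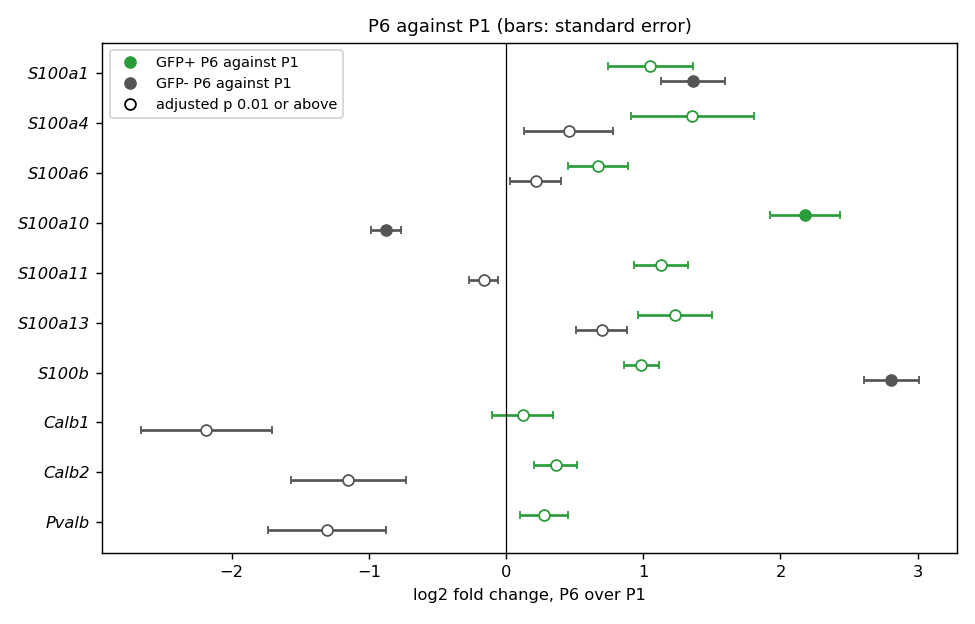
Log2 fold change of P6 over P1 in GFP+ (green) and GFP- (grey) cells for the 10 genes, with standard errors from edgeR. Filled points passed p-adj below 0.01: S100a10 in GFP+ cells (2.18), and S100b (2.81), S100a1 (1.36) and S100a10 (−0.87) in GFP- cells.

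In the test of whether the fraction contrast differed between P1 and P6, 2 of the 10 genes passed, S100a10 and S100b, where 1.93% of all genes passed. S100a10 had crossed from the GFP- to the GFP+ side, and the S100b fractions overlapped at P6. The median difference of the 10 was −1.07 against −0.03 over all genes. Age and dissection cannot be told apart in this test.

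Of 9 other S100 genes on the list, 2 passed the filter. S100a16 was at 6.13 and 4.74 CPM in P1 GFP+ cells and 24.1 and 24.0 CPM in P1 GFP- cells (log2 −2.03, p-adj 0.000293), and it rose in GFP- cells to 48.2 and 42.5 CPM at P6 (1.11, p-adj 0.00226). In P6 GFP+ cells it was at 8.50 and 18.9 CPM, further apart than in any other group. S100a14 was at 2.65 and 1.31 CPM in P6 GFP+ cells and at 0.243 and 0.251 CPM in P6 GFP- cells, and its difference of 2.96 on the log2 scale missed the threshold (p-adj 0.0105). The inflammatory pair S100a8 and S100a9, which neutrophils make in bulk, stayed at 0.506 CPM or less in each library, and the neutrophil markers summed to at most 1.91 CPM.

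Among 36 other EF-hand buffers and sensors tested, 11 were higher and 12 lower in GFP+ cells at P1, where 16.6% and 20.7% of all genes were. At P6 6 were higher and 4 lower, where 7.72% and 5.19% of all genes were. At P1 the largest were Cabp2 (log2 5.10, p-adj 6.65e-05), Ocm (2.51, p-adj 0.00946) and Efhd1 (2.25, p-adj 0.000276) on the higher side. Kcnip1 (−3.95), the hippocalcin gene Hpca (−3.85) and the visinin-like gene Vsnl1 (−3.73) led on the lower side. Efhd1, a mitochondrial EF-hand protein, was the most abundant of these, at 384 and 408 CPM in P1 GFP+ and 71.1 and 108 CPM in P1 GFP- cells. At P6 Ocm (5.36, p-adj 0.00271), Cabp2 (4.12, p-adj 0.00688) and Efhd1 (3.73, p-adj 0.00101) were higher, and Hpca (−3.80), Rcn3 (−2.60) and Cabp7 (−2.41) lower.

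Ocm, the gene of oncomodulin, a parvalbumin known from outer hair cells, stood out between the ages. It was at 0.567 and 0.362 CPM in P1 GFP+ cells and at 86.2 and 34.4 CPM in P6 GFP+ cells, a log2 change of 7.04 ± 0.64 (p-adj 0.00428). In GFP- cells it went from 0.0792 and 0.0951 CPM to 1.78 and 1.14 CPM (4.20 ± 0.50, p-adj 0.00247). Of the 10 hair cell markers 2 fell in GFP+ cells and none passed as higher, with a median of −0.53. Pou4f3 was at 12.1 and 15.9 CPM in P1 and 12.2 and 9.01 CPM in P6 GFP+ cells, and Tmc1, a channel gene of hair cells, at 5.0 and 4.82 CPM and at 19.9 and 14 CPM (1.88, p-adj 0.0115). The part of hair cells in the level of Ocm was not tested. Pvalb, the parvalbumin among the members, was at 14.8 to 18.8 CPM throughout the GFP+ libraries. Cabp7 (3.53) and Gca (1.87) also rose in GFP+ cells, Cabp7 (6.13) and Hpca (1.11) in GFP- cells. In the interaction 0 of 36 passed in edgeR, and 11 had an unadjusted p below 0.05.

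Of 10 genes of proteins that S100 proteins bind, 5 passed at P1, all 5 lower in GFP+ cells, where 20.7% of all genes passed as lower and 37.3% in all. The largest were Anxa1, the S100a11 partner annexin A1 (−4.93, p-adj 3.48e-05), Ahnak, a large scaffold that binds S100a10 with annexin A2 (−2.98, p-adj 1.40e-05), and Anxa6 (−2.03, p-adj 2.57e-05). Anxa1 and S100a11 were thus both lower in P1 GFP+ cells. Fgf1 and Cacybp, named above with S100a13 and S100a6, lay close in the P1 fractions. Fgf1 was at 7.33 and 7.15 CPM in GFP+ and 7.10 and 8.43 CPM in GFP- cells, and Cacybp at 63.7 and 64.4 against 66.3 and 63.5 CPM. Syt1, also on this list, was at 57.9 and 48.2 CPM in P1 GFP+ and 115 and 115 CPM in P1 GFP- cells. At P6 0 of 10 passed in edgeR, and 5 had an unadjusted p below 0.05. Anxa6 rose in GFP+ cells by 2.45 on the log2 scale (p-adj 0.00208), from 90.2 and 92.7 CPM to 457 and 481 CPM, and was the 1 partner that passed the interaction (−1.85, p-adj 0.00234).

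Of 26 calcium pumps, exchangers and store channels tested at P1, 6 were higher and 10 lower, where 16.6% and 20.7% of all genes were. Of 27 tested at P6, 3 were higher and 1 lower, where 7.72% and 5.19% of all genes were and 12.9% passed in all. Atp2a3, a pump that fills the store, was higher in GFP+ cells at both ages (log2 2.81 and 3.35), as was Itpr2, a store channel opened by inositol trisphosphate (1.97 and 2.36). Casq2, which binds calcium in the store, was higher at P1 (2.74), and Casq1 (−2.90), Ryr3 (−2.82) and Ryr2 (−2.47) were lower. Ryr1, a ryanodine receptor gene of the kind that S100a1 binds, was at 2.95 and 4.46 CPM in P1 GFP+ and 7.42 and 5.31 CPM in P1 GFP- cells. At P6 it was at 19.2 and 18.6 CPM in GFP+ and 1.78 and 1.99 CPM in GFP- cells, higher by 3.32 (p-adj 0.000989), while the mitochondrial channel gene Mcu was lower (−1.10, p-adj 0.00954). Ryr1 rose in GFP+ cells (2.46) and fell in GFP- cells by 1.56, and passed the interaction (−3.99, p-adj 0.00167), as did Casq2 (2.84, p-adj 0.00558). Atp2a3 (1.21) rose and Slc8a2, a sodium-calcium exchanger, fell by 1.39 in GFP+ cells, while in GFP- cells Itpr1 (0.96) and Orai1 (0.95) rose and the plasma membrane pumps Atp2b3 and Atp2b4 fell by 1.47 and 0.99.

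For each member the genes with the most alike profile were sought by Pearson r of log2(CPM + 1) over the 8 libraries, among 10838 genes with a mean of at least 10 CPM. S100a1 was nearest to Anxa5 (r = 0.999), at 961 and 1017 CPM in P1 GFP+ and 131 and 160.2 CPM in P1 GFP- cells, and to Fzd6 (0.997). S100a13 was nearest to Fam176a (0.995) and Aftph (0.994), S100a6 to Srd5a1 (0.998) and Snx5 (0.998), and S100b to Gpr37 (0.995) and Tcn2 (0.987). S100a10 was nearest to Tuba1b (0.987) and Mcam (0.979). Among the genes nearest to the others were, for S100a11, Pcsk2 (0.964) and, for S100a4, Fam162a (0.990). Of the buffers, Calb1 was nearest to Ap3b2 (0.989) and Tubb2b (0.986), Calb2 to Cox10 (0.987) and Disp2 (0.934), and Pvalb to Syt11 (0.974) and Zfp180 (0.953). These are the highest of many values over libraries that share 4 groups, and they are given as a description.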

How the data were processed

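Per the labels and the study's methods, RNA was extracted from sorted cells and made into libraries with the TruSeq RNA kit v2, which does not mark strand. The study's methods reserve a prior amplification for libraries from fewer cells than these freshly sorted ones. Paired-end reads were mapped by the authors to mm9 with TopHat (1.4.0 in the submitters' processing notes) and counted per Ensembl gene with HTSeq. The deposited files hold these raw counts, 1 file per library, and the counting mode and strand setting are not given in the sources used here. Rows that name no gene were left out: 13.8 to 25.6% of the counted reads fell on no feature, 2.05 to 2.53% were ambiguous and 7.41 to 9.60% did not map uniquely. The gene symbols, exon lengths and transcripts came from GENCODE vM1 (NCBIM37), which matched 34391 of the 36536 gene identifiers.

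CPM is a count per 1000000 gene counts of the library, and RPKM is CPM per kilobase of the union of exons. Each comparison used edgeR 4.0.16 (R 4.3.3) on the 4 libraries of its 2 groups: filterByExpr, TMM scaling, glmQLFit and a two-sided glmQLFTest, with Benjamini-Hochberg adjustment over all genes tested, and p-adj below 0.01 as the call, a threshold the study also used. The interaction used all 8 libraries and is the P1 log2 ratio of GFP+ to GFP- minus the P6 ratio. The procedure was tested on simulated data. Copies of the member transcripts were sought in the genome with blastn 2.17.0 (at least 100 bases at 95% identity). Alternatives were DESeq2 1.42.0 size factors and test, scaling by totals, no filter, a fit of all 8 libraries, a replicate block, each library left out, and a fold change above 4.

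The members and the gene lists were chosen with earlier results of these data known. From the lists of other S100 genes, other EF-hand genes, S100 partners and calcium pumps and channels, the called genes with the largest changes are named, at most 3 per direction and comparison. A few items, among them 1 loop sequence and 2 of the genes with like profiles, are not reported here. S100a14, S100a8, S100a9, Anxa2, Fgf1, Cacybp and Syt1 were named after their values were seen. No 2 libraries of a group agreed within sampling noise.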

Additional observations from a re-analysis of the deposited data

Results flagged for a closer look

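For 4 of the 10 genes the contrast between GFP+ and GFP- cells was flagged as unlike at P1 and P6. S100a10 and S100b passed the test of that difference. S100a11 and Calb2 did not, and were flagged because their replicates separated in opposite directions. How many of all genes do so was not counted. The values are differences of log2 ratios, P1 minus P6, from the edgeR interaction over the 8 libraries. S100a10 differed by −3.03 (p-adj 0.00187), with all P1 libraries lower and all P6 libraries higher in GFP+ cells. S100b differed by 1.84 (p-adj 0.00867), higher in GFP+ cells in both P1 replicates and overlapping at P6. S100a11 differed by −1.27 and Calb2 by −1.49, and neither passed the test (p-adj 0.0200 and 0.177). Their GFP+ replicates were both below the GFP- replicates at P1 and both above at P6. The P1 log2 fold change of Calb2 was −1.22, and −0.33 without P1 GFP- replicate 2. Groups of 2 libraries were too small for a check of single outlying libraries.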

How the results depend on the processing

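Over the single-gene fold changes, 449 values kept direction and side of the threshold, 52 gained and 34 lost a call, and 5 changed sign: Pvalb at P1 without P1 GFP- replicate 2, S100b at P6 without P6 GFP- replicate 1, Calb1 in GFP+ cells with age without P6 GFP+ replicate 1, and the S100a1 interaction without P1 GFP- replicate 1 (−0.0055) and without P6 GFP+ replicate 2 (−0.033). With each library left out, the log2 values ran from −1.36 to 0.14 for Pvalb, −0.26 to 0.051 for S100b, −0.20 to 0.40 for Calb1 and −0.033 to 0.82 for S100a1 in these comparisons. A fold change above 4 left 2 members at P1, 1 in GFP- cells with age and 1 in the interaction. With age in GFP+ cells 5 members passed with the DESeq2 test, 6 without a filter and 4 with all 8 libraries in the fit, against 1. With age in GFP- cells 6 passed without a filter and 1 with all 8 libraries, against 3. In the interaction 4 passed with the DESeq2 test, 6 without a filter and 1 with library totals only, against 2. The cause was not tested.

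Each library left out in turn gave 5 to 9 members at P1, 0 to 6 at P6, 0 to 9 in GFP+ cells with age, 1 to 6 in GFP- cells with age and 0 to 4 in the interaction. The interaction had 0 calls without either P1 GFP+ library or either P6 GFP- library, where edgeR gave 4 to 6 members an unadjusted p below 0.05. In these fits the lone library of a group is assumed to vary like the others. The count of calls over all genes moved in these fits too, so the counts of members are not particular to them.

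The titles do not say whether the replicate numbers pair the samples. Same-numbered libraries correlated in their deviations by 0.02 at P1, 0.08 at P6, and −0.09 and −0.28 between the ages within GFP+ and GFP- cells. Fractions of 1 pool can deviate apart from each other, so low values do not exclude a pairing of the fractions. A replicate block gave 6 members at P1, 5 at P6, 1 in GFP+ cells with age, 2 in GFP- cells with age and 1 in the interaction, and S100a4 at P1 (p-adj 0.0172), S100a1 in GFP- cells (p-adj 0.0102) and the S100b interaction (p-adj 0.0244) were without a call. A crossed replicate block in GFP- cells, added after the data were seen, gave 6 members and 3063 genes.

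Over all genes, 2363 were called at P6, and 4891, 5309 and 5157 with the DESeq2 test, no filter and all libraries. With age the same alternatives gave 3037, 4090 and 2361 against 828 in GFP+ cells, and 3050, 3993 and 769 against 1397 in GFP- cells. For the interaction the DESeq2 test, no filter and the block gave 1439, 2400 and 151 against 372. Scaling by totals moved the median of all genes by −0.10 at P1, −0.19 in GFP- cells with age and −0.12 in the interaction. With 2 libraries a group and levels near 1 CPM for S100a4, small differences were not detectable.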
